A study of Mus musculus with 33 samples.

Results

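The pan-neuronal differentiation genes followed here are 10 genes that nerve cells of most kinds express as they mature, taken by name from the 37991 gene identifiers of the count files. They are Tubb3, Map2, Stmn2, Nefl and Nefm of the cytoskeleton, the RNA-binding proteins Elavl3 and Elavl4, the synaptic proteins Snap25 and Syt1, and the growth-cone protein Gap43. The rule used their names and no measured value, though the set was proposed with earlier results of these data known. All 10 were found, Map2 under its older annotation name Mtap2. RNA was sequenced from E14TG2a cells, a mouse embryonic stem cell line, at 3 stages: undifferentiated cells (mESCs), embryoid bodies at day 8 (EBs), and day 8 embryoid bodies given 5 µM retinoic acid from day 4 (EBs + RA), the treatment that favours neural differentiation. At each stage there were 3 control clones (#1, #4 and #7), which had received the Cas9 plasmid without guides. The mutants were 3 Neil1-mutant clones (#7, #9 and #11), 3 Neil2-mutant clones (#1, #11 and #14) and 1 Apex1-mutant clone (#46) in technical duplicates. This makes 33 libraries in 12 groups. Neil1 and Neil2 encode DNA glycosylases that remove oxidized bases and also cut the strand there by a lyase activity. Apex1 encodes an endonuclease that cuts abasic sites arising in base excision repair. All clones, controls included, passed through transfection with pX330 and pPGKPuro and puromycin selection. EBs and EBs + RA of a clone were split from 1 culture on day 4.

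Neurons are recognized by proteins that other cells make little of. A neuron-specific beta-tubulin (Tubb3), a dendritic microtubule-associated protein (Map2) and a tubulin-binding stathmin (Stmn2) shape neurites, while the light and medium neurofilament chains (Nefl, Nefm) fill axons. Hu proteins (Elavl3, Elavl4) bind and stabilize neuronal mRNAs, Snap25 belongs to the complex that fuses synaptic vesicles with the membrane, Syt1 is the calcium sensor of that fusion, and Gap43 is a phosphoprotein of growing axon tips.

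RefSeq promoter windows of the GRCm38.p6 assembly, 250 bases before to 50 bases after an annotated start, were at hand for 5 of the 10 genes: Map2, Elavl4, Tubb3, Elavl3 and Syt1. Stmn2, Snap25, Nefl, Nefm and Gap43 had no entry. A cytoskeletal, an RNA-binding and a synaptic member are shown, since all 3 were raised by retinoic acid in control clones and were lower in Neil1- and Neil2-mutant EBs + RA (values further on). Capitals mark GC boxes (GGGCGG, searched on both strands) and E-boxes (CANNTG, the letters that basic helix-loop-helix factors bind).
Tubb3, chr8:123411303-123411602, plus strand: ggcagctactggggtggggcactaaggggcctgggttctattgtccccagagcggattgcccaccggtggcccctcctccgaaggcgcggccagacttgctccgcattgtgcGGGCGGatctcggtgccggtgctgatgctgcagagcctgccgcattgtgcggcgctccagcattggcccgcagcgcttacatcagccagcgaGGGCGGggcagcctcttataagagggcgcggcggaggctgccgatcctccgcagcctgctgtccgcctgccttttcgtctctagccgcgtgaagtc
Elavl3, chr9:22051974-22052273, minus strand: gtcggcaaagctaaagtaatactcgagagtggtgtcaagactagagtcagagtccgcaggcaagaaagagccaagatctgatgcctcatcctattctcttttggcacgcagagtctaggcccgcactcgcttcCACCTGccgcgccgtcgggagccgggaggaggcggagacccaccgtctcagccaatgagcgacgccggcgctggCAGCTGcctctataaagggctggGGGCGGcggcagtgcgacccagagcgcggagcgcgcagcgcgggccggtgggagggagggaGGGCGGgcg
Syt1, first listed start, chr10:109010926-109011225, minus strand: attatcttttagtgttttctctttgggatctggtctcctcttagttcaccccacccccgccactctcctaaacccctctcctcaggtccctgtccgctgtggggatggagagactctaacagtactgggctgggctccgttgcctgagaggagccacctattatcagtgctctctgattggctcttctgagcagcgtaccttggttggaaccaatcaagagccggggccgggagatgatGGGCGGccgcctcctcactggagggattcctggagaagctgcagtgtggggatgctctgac

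The Tubb3 window held 2 GC boxes, starting at positions -138 and -46 from the transcription start, and no E-box. That of Elavl3 held GC boxes at -20 and 42, E-boxes at -117 (CACCTG) and -43 (CAGCTG) and a TATA box (TATAAA, not in capitals) at -33. In Syt1 the first listed window had 1 GC box, at -11. The Map2 window had 5 GC boxes and a GC content of 77.7%, against a median of 52.7% over all 32851 windows. A GC box stood in 35.7% of all windows, an E-box in 72.3% and a TATA box in 13.6%, so that each of these letters is common. RE1, the site of the neuronal repressor REST, was searched in a degenerate form by name on both strands. It was in 0.0517% of all windows and in none of the 9 windows of these genes, which says only that the letters searched are not there.

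Libraries had 21523742 to 48350904 counts on genes (median 26720028). Levels are given as CPM, counts scaled to library size with TMM factors, and between genes as TPM, which also divides by exon length. FDR is the p-value of edgeR's quasi-likelihood test adjusted by Benjamini-Hochberg over all genes tested, and a gene is called raised or lowered at an FDR below 0.1 with a log2 fold change beyond 0.5. Counts of the targeted genes gave no uniform check of the genotype labels. Neil1 was lower in Neil1 mutants than in control as EBs (3.51 ± 2.36 against 7.88 ± 1.82 CPM, SD, n = 3) and EBs + RA (3.15 ± 1.09 against 7.18 ± 1.05), while in mESCs clone #7 had 31.5 CPM and clones #9 and #11 had 2.48 and 7.37, against 9.03 ± 1.22. Neil2 in Neil2 mutants was at 7.14 ± 2.12 CPM in mESCs, 11.3 ± 5.91 in EBs and 5.32 ± 0.497 in EBs + RA, against 11.4 ± 4.99, 8.53 ± 2.12 and 3.95 ± 0.551 in control. Apex1 was higher in the libraries labelled Apex1 at every stage, at 73 and 77.2 CPM in mESCs, 60 and 86.2 in EBs and 56.5 and 64.2 in EBs + RA, against 11.2 ± 5.65, 14.4 ± 1.66 and 13.6 ± 0.899 in control. Apex1 overlaps Tmem55b on the opposite strand, and reads there cannot be assigned without strand. The planned deletions take out a region around the active-site codon of each gene, and their share of the exon bases was not measured. A count over the whole gene does not show the deletion itself, and mutant means below the genotype as labelled. The paper itself checked the mutant lines by other means. It reports genotyping PCR with smaller products in the mutant lines, Western blots for NEIL1 and APEX1, and qPCR for Neil2. In mESCs of Neil1 clone #11, 345 of the 511 chromosome X genes that all the remaining mESC libraries detected with 10 counts or more had none, but all 10 genes studied here are autosomal. Summed over 8 pluripotency markers, control libraries had 6569 to 7725 CPM as mESCs, 3185 to 3852 as EBs and 169 to 260 as EBs + RA.

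Before retinoic acid the neuronal name of the set was only partly borne out by the control clones. In control mESCs, Stmn2 had the highest level per length, at 402 ± 32.4 TPM (SD, n = 3), and Tubb3 came next at 131 ± 28.1 TPM, whereas Syt1 (0.224 ± 0.101 TPM) and Snap25 (0.0942 ± 0.0664 TPM) were near the limit of detection, the latter with 21 counts over 3 libraries. Nefl (16.8 ± 1.29 TPM), Gap43 (16.2 ± 2.84) and Elavl3 (9.85 ± 3.8) lay between them, with Nefl and Gap43 within each other's spread. Map2, Nefm and Elavl4 stood close together, between 1.61 and 1.69 TPM. Stmn2 and Tubb3 were therefore present at high level in undifferentiated cells.

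On the way from mESCs to EBs without retinoic acid, 5 of the 10 genes fell in control clones and 1 rose, where 18.3% of all genes tested were lowered and 17% raised. Elavl3 fell from 22.4, 27.3 and 11.3 CPM in clones #1, #4 and #7 to 2.42, 3.46 and 3.35 CPM, a log2 fold change of -2.73 ± 0.32 (SE, FDR 4.5e-07). Stmn2 fell from 326, 293 and 317 CPM to 67.4, 70.9 and 80.9 CPM, and Tubb3 from 76.5, 105 and 119 CPM to 31.3, 31.1 and 16.8 CPM. Every EB library of the 3 genes was below every mESC library, but the share of all genes for which this holds was not counted. The decrease of Elavl4 (log2 fold change -1.0 ± 0.27, FDR 0.00568) and of Map2 (-0.78 ± 0.27, FDR 0.0277) was smaller, and that of Map2 was not called without control clone #1 (-0.55, FDR 0.272) or #4 (-0.69, FDR 0.171). Nefm alone rose, from 2.38, 4.46 and 5.19 CPM to 7.77, 10.4 and 15.0 CPM (log2 fold change 1.46 ± 0.35, FDR 0.00188). Nefl, Gap43, Syt1 and Snap25 did not pass the test, with log2 fold changes of -0.48 to 0.44.

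Retinoic acid raised 8 of the 10 genes in control clones, where 20.6% of all genes were raised and 19.1% lowered. Expressed as log2 fold change of EBs + RA against EBs, Snap25 (3.27 ± 0.47), Syt1 (3.26 ± 0.32) and Elavl3 (3.10 ± 0.32) rose most, followed by Elavl4 (2.79 ± 0.28) and Map2 (2.58 ± 0.28). Nefm (1.96 ± 0.34), Tubb3 (1.91 ± 0.41) and Gap43 (1.88 ± 0.40) rose less, and the FDRs of the 8 ran from 1.7e-08 to 8.8e-04. Stmn2 went the other way, by -2.23 ± 0.34 (FDR 2.1e-05), to 17.2, 16.8 and 12.6 CPM, and Nefl was at -0.50 ± 0.27 (FDR 0.15). In TPM the order in control EBs + RA was Tubb3 (141 ± 43.3), Gap43 (54.5 ± 27.0), Stmn2 (21.7 ± 3.09), Nefm (19.8 ± 2.77), Nefl (16.6 ± 2.57), Elavl3 (13.8 ± 4.16), Map2 (6.38 ± 1.02), Elavl4 (6.02 ± 1.49), Syt1 (1.68 ± 0.0838) and Snap25 (1.37 ± 0.174). Stmn2 and Nefm, Nefm and Nefl, Nefl and Elavl3, and Map2 and Elavl4 are neighbours whose means lie within their joint SDs. Stmn2 was thus first in mESCs and behind Tubb3 and Gap43 in EBs + RA.

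**Figure D1:**
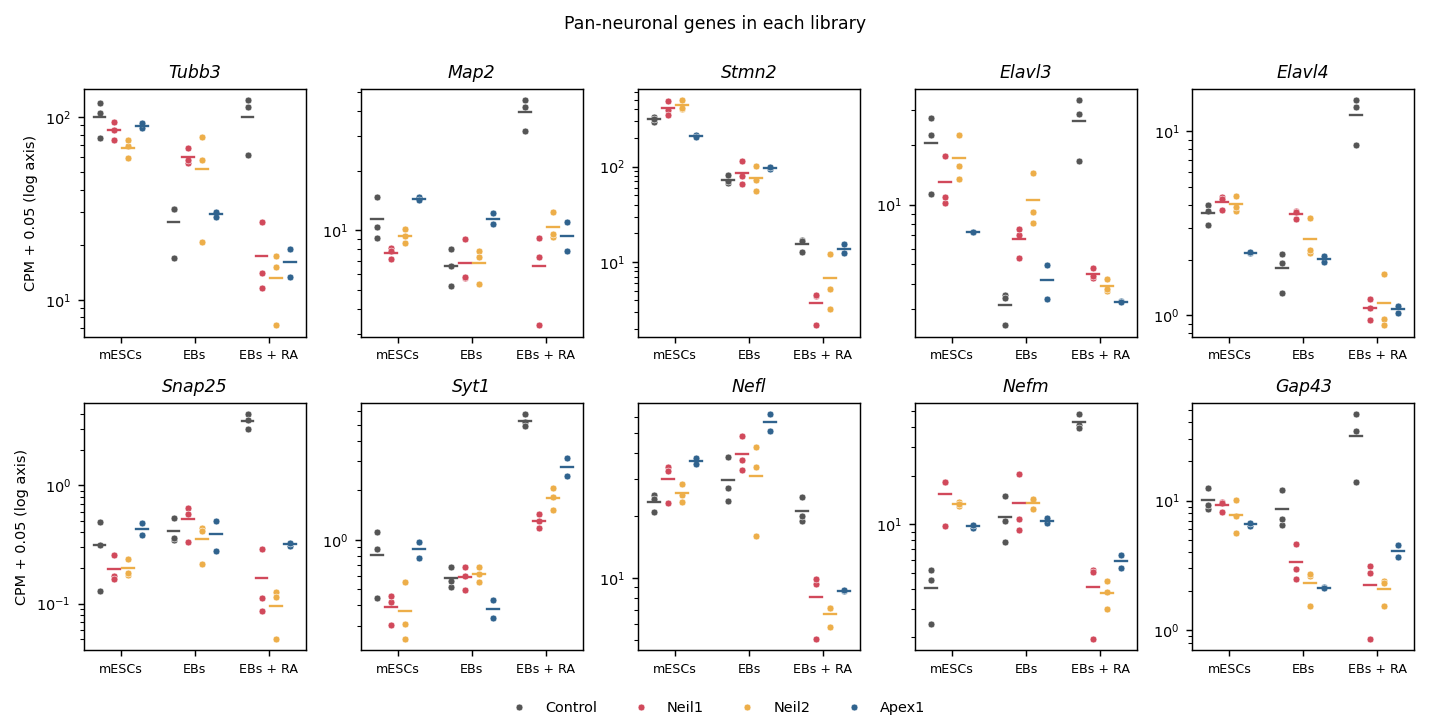
Level of each gene in every library, as CPM + 0.05 on a logarithmic axis, by stage (x axis) and genotype (colour), with 1 panel per gene, 1 point per library and a line at each group's mean. In EBs + RA the points of Neil1- and Neil2-mutant clones lie below all 3 control points in all 10 panels.

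The main comparison asks whether mutant cells reach the neuronal program that retinoic acid brings on in control EBs. In EBs + RA all 10 genes were lowered in Neil1 mutants and all 10 in Neil2 mutants, with median log2 fold changes of -2.56 and -2.82 against 0.00 over all genes in both comparisons. Of all genes tested 19.9% were lowered in Neil1 and 16.6% in Neil2 mutants. Every Neil1 library was below every control library for 10 of 10 genes, as were 27.9% of all genes, and every Neil2 library for 10 of 10, as were 26.4%. In bulk RNA, fewer neurons and less neuronal RNA per cell cannot be told apart. Both comparisons use the same control libraries, so they are not independent of each other.

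Among the cytoskeletal genes, Tubb3 in EBs + RA was at 113, 123 and 61.7 CPM in control clones #1, #4 and #7, at 13.9, 11.6 and 26.6 CPM in Neil1 clones #7, #9 and #11, and at 7.2, 17.2 and 15.1 CPM in Neil2 clones #1, #11 and #14. The highest mutant library thus had less than the lowest control, and the log2 fold changes were -2.51 ± 0.37 (FDR 0.00203) in Neil1 and -2.90 ± 0.36 (FDR 0.00116) in Neil2 mutants. Map2 was at 45.1, 41.7 and 31.5 CPM in control, 9.13, 7.32 and 3.27 in Neil1 and 12.3, 9.15 and 9.58 in Neil2 clones, or 5.93-fold and 3.75-fold lower in the fits. Map2 shares 124 exon bases with Gm10558, a long non-coding RNA gene of the opposite strand, and reads there cannot be assigned without strand. The neurofilament genes differed in the size of their decrease. Nefm was at 41.1, 39.4 and 47.9 CPM in control, 5.17, 5.0 and 1.9 in Neil1 and 2.96, 4.43 and 3.78 in Neil2 clones, a decrease of 10.5-fold and 11.3-fold. For Nefl the control clones had 24.6, 18.8 and 19.8 CPM, the Neil1 clones 9.32, 9.86 and 5.01 and the Neil2 clones 7.13, 7.08 and 5.76, or 2.59-fold and 3.11-fold less. Nefl and Nefm lie on opposite strands of chromosome 14 (NCBIM37, positions 68701920 to 68707152 and 68700647 to 68742903) and share 1108 annotated exon bases. Reads there cannot be assigned to 1 gene without strand, so the part of either gene's count that falls there is uncertain. If counted without strand, they would stand among the ambiguous reads that were left out and count for neither gene. TPM divides by the full exon length, so that of both genes may then be too low.

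Stmn2 had the weakest support. It was at 17.2, 16.8 and 12.6 CPM in control, 4.4, 4.54 and 2.14 in Neil1 and 3.19, 12.2 and 5.17 in Neil2 clones, so that Neil2 clone #11 came within 1 CPM of the lowest control clone. In Neil1 mutants it was lowered by -2.06 ± 0.32 (FDR 0.00226), and in Neil2 mutants by -1.16 ± 0.43 (FDR 0.0734). The Neil2 call was lost without control clone #1 (-1.08, FDR 0.187), control clone #4 (-1.10, FDR 0.17), Neil2 clone #1 (-0.82, FDR 0.109) or Neil2 clone #14 (-0.99, FDR 0.199), whereas without Neil2 clone #11 it was -1.87 (FDR 0.00625).

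Both Hu genes fell. Elavl3 was at 28.5, 33.4 and 16.6 CPM in control EBs + RA, against 4.24, 4.75 and 4.32 in Neil1 and 3.64, 3.73 and 4.17 in Neil2 clones (log2 fold changes -2.55 ± 0.28, FDR 5.1e-04, and -2.75 ± 0.27, FDR 4.8e-04). Elavl4 was at 13.6, 14.7 and 8.38 CPM in control, 0.898, 1.18 and 1.05 in Neil1 and 0.9, 1.63 and 0.833 in Neil2 clones, which is 11.6-fold and 10.7-fold lower. Control clone #7 was the lowest control clone for both genes and still lay above every mutant clone.

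Of the synaptic genes, Snap25 was at 3.96, 3.5 and 2.98 CPM in control clones and at 0.0619, 0.0357 and 0.242 CPM in Neil1 and 0.075, 0.0637 and 0 CPM in Neil2 clones. Those mutant values rest on 9 and 4 counts, against 303 in control. The ratio of summed counts per library size, control to mutant, was 31.7 (95% exact interval 16.5 to 70.1) for Neil1 and 71.8 (27.8 to 265) for Neil2, intervals that cover counting error only. Syt1 was at 5.12, 5.73 and 4.87 CPM in control, 1.39, 1.25 and 1.13 in Neil1 and 1.76, 2.01 and 1.46 in Neil2 clones (log2 fold changes -2.04 ± 0.26, FDR 9.7e-04, and -1.56 ± 0.24, FDR 0.00266). The growth-cone gene Gap43 was at 34.3, 46.2 and 13.8 CPM in control, 3.1, 2.71 and 0.808 in Neil1 and 1.5, 2.36 and 2.29 in Neil2 clones, or 14.0-fold and 15.1-fold lower. Gap43 also had the widest control spread of the set relative to its mean (31.4 ± 16.4 CPM), and the groups still did not overlap.

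Control clone #7 was the lowest of the 3 control clones for 8 of the 10 genes in EBs + RA, as it was for 40.7% of all genes, and Neil1 clone #11 was the lowest of its group for 6, as for 42.5% of all genes. In clone #7 the summed level of 9 neural progenitor markers was lower too (734 CPM against 1277 and 1324), as was that of 15 proneural and early neuronal factors (95.7 against 199 in each of the others). The summed level of 8 endoderm markers was higher in control clone #7 (630 CPM against 265 and 185), and in Neil1 clone #11 it was the highest of its group (1414 against 663 and 1117). The part of these levels in the spread of the neuronal genes was not tested. Without control clone #7, all 10 genes were still called lowered in Neil1 and in Neil2 mutants.

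In Apex1-mutant EBs + RA, 7 of the 10 genes were lowered, where 2.25% of all genes were. This clone stands as 1 library with its duplicates summed, and is assumed to vary like the other genotypes. Its duplicates differed by more than counting error. Their chi-square per degree of freedom was 5.937 in mESCs, 12.27 in EBs and 27.65 in EBs + RA. Elavl4 (0.984 and 1.07 CPM in the duplicates, log2 fold change -3.53 ± 0.55, FDR 0.0137), Elavl3 (3.21 and 3.18 CPM, -3.00 ± 0.42, FDR 0.0113) and Nefm (6.42 and 5.28 CPM, -2.85 ± 0.52, FDR 0.0198) passed along with Snap25, Gap43, Tubb3 and Map2. Nefl (8.56 and 8.7 CPM, -1.25 ± 0.39, FDR 0.104), Syt1 (3.08 and 2.38 CPM, -0.93 ± 0.36, FDR 0.188) and Stmn2 (15.3 and 12.3 CPM, -0.16 ± 0.61, FDR 0.924) did not. Both Apex1 libraries were below every control library for 9 of 10 genes, as for 26.7% of all genes, and overlapped with control for Stmn2. Without control clone #1 or #4 the calls fell from 7 to 3 or 4.

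Compared with each other in EBs + RA, Neil1 and Neil2 mutants showed no called difference in any of the 10 genes. edgeR gave 0 calls, 0 genes of the set at an unadjusted p below 0.05, and DESeq2 gave 0 as well. Over all genes edgeR also called 0 (0%), with 2166 at an unadjusted p below 0.05, while DESeq2 called 102 higher and 58 lower. The log2 differences of Neil1 to Neil2 ran from -0.91 ± 0.44 for Stmn2 to 1.14 ± 0.89 for Snap25, so a difference of this size could not be told from none. Against the mean of both Neil mutants, Apex1 had 0 called genes of the set in EBs + RA (12.6% of all genes were called either way), with 3 at an unadjusted p below 0.05 and 3 calls by DESeq2. Stmn2 (1.47 ± 0.51, FDR 0.108) and Syt1 (0.89 ± 0.30, FDR 0.101) were the nearest to the limit, both higher in Apex1.

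**Figure D2:**
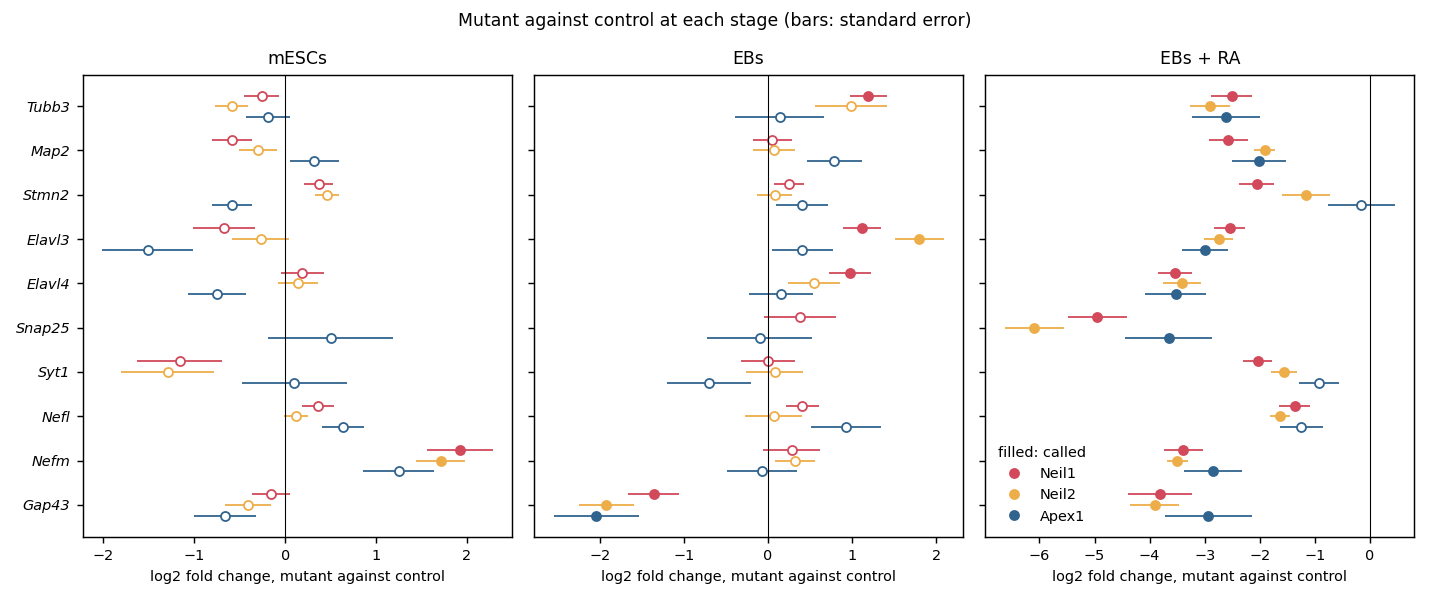
Log2 fold change of each mutant against control (x axis) for the 10 genes (y axis) at each stage, with bars for the standard error and filled points for called genes. Points scatter on both sides of 0 in mESCs and EBs and lie on the lower side in EBs + RA, between -6.09 and -0.16.

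Without retinoic acid the genes moved in both directions. In Neil1-mutant EBs, 3 of 10 were raised and 1 lowered (10.4% and 13.1% of all genes), and in Neil2-mutant EBs 1 of 9 tested was raised and 1 lowered (8.65% and 7.69%), Snap25 being under the count filter there. Elavl3 was at 7.0, 7.52 and 5.36 CPM in Neil1 and 14.4, 9.12 and 8.02 CPM in Neil2 clones, all above the 2.42 to 3.46 CPM of control (log2 fold changes 1.12 ± 0.23, FDR 0.00409, and 1.80 ± 0.29, FDR 0.00533). Tubb3 was at 55.6, 67.7 and 58.0 CPM in Neil1 clones against 31.3, 31.1 and 16.8 in control (1.19 ± 0.22, FDR 0.00445). Its Neil2 clones, at 20.7, 77.3 and 57.9 CPM, overlapped with control (0.99 ± 0.43, FDR 0.181). Elavl4 was raised in Neil1 mutants (0.98 ± 0.25, FDR 0.0133) and was at 0.55 ± 0.31 (FDR 0.309) in Neil2 mutants. None of the 3 genes raised in Neil1-mutant EBs was raised there with retinoic acid. Summed over 8 pluripotency markers, EBs had 5079 to 6464 CPM in Neil1, 4686 to 6342 in Neil2 and 6401 to 6512 in Apex1 libraries. Control EBs had 3185 to 3852 CPM. The repressor gene Rest was at 272 to 288, 177 to 299 and 280 to 338 CPM, against 159 to 169 in control EBs. The part of these levels in the EB values of the neuronal genes was not tested. Counted by libraries that do not overlap, 3 of the 10 genes lay above control and 1 below in Neil1-mutant EBs (21.3% and 22.8% of all genes), 2 above and 1 below in Neil2 mutants (16% and 17.3%), and 3 above and 2 below in the Apex1 libraries (28.5% and 28.3%).

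Gap43 was the exception, being lower in mutants at both embryoid body stages. In EBs it was at 6.43, 12.1 and 7.18 CPM in control, 2.9, 2.44 and 4.54 in Neil1, 1.5, 2.59 and 2.66 in Neil2 and 2.11 and 2.06 in the Apex1 libraries. All 8 mutant libraries were below all 3 control libraries, and the log2 fold changes were -1.36 ± 0.30 (FDR 0.00813), -1.92 ± 0.33 (FDR 0.00784) and -2.04 ± 0.51 (FDR 0.0457). It was the 1 gene of the set lowered in Apex1-mutant EBs (4.77% of all genes), with none raised (4.12%), and was not called there without control clone #4 (-1.71, FDR 0.115). Between Neil1 and Neil2 mutants no difference was called in EBs (0 calls by edgeR, with 1 gene at an unadjusted p below 0.05, and 0 by DESeq2). Apex1 against the mean of the Neil mutants gave 0 calls in EBs (9.59% of all genes called), 2 genes at an unadjusted p below 0.05 and 1 call by DESeq2.

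In mESCs 1 of 9 tested genes was raised in each Neil mutant, Nefm in both (1.03% of all genes were raised in Neil1, 1.4% in Neil2), and none was lowered (0.784% and 0.429%). It was at 2.38, 4.46 and 5.19 CPM in control, 18.1, 18.2 and 9.77 in Neil1 and 12.9, 13.7 and 13.3 in Neil2 clones, so that every mutant library was above every control library. The log2 fold changes were 1.92 ± 0.36 (FDR 0.0804) and 1.71 ± 0.27 (FDR 0.0548). Without Neil1 clone #11, whose mESC library lacks many chromosome X counts, Nefm was at 2.17 (FDR 0.0508). Several other omissions ended these calls. For Neil1 they were control clone #1 (1.65, FDR 0.263), control clone #4 (1.99, FDR 0.338), Neil1 clone #7 (1.78, FDR 0.222) and Neil1 clone #9 (1.77, FDR 0.163). For Neil2 they were control clone #4 (1.79, FDR 0.194), Neil2 clone #11 (1.69, FDR 0.161) and Neil2 clone #14 (1.71, FDR 0.311). The Apex1 libraries had 9.46 and 9.87 CPM of Nefm (1.25 ± 0.39, FDR 0.143). In Apex1-mutant mESCs edgeR called 0 of the 10 genes (1.98% of all genes), with 5 at an unadjusted p below 0.05 and 3 called by DESeq2.

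Stmn2, already abundant in control mESCs, was at 486, 389 and 343 CPM in Neil1 and 399, 414 and 492 CPM in Neil2 clones, all above the control range of 293 to 326 CPM, but it did not pass the test (0.37 ± 0.16, FDR 0.326, and 0.46 ± 0.13, FDR 0.147). The Apex1 duplicates, at 215 and 205 CPM, were below that range. Against the mean of the Neil mutants Apex1 mESCs had less Stmn2 (-1.0 ± 0.21, FDR 0.0237) and Elavl4 (-0.91 ± 0.30, FDR 0.085) and more Map2 (0.76 ± 0.24, FDR 0.0756), where 15% of all genes were called. By libraries that do not overlap, 2 genes lay above and 1 below control in Neil1 mESCs (11.1% and 9.92% of all genes), 2 above and 1 below in Neil2 mESCs (13.4% and 9.17%), and 2 above and 4 below in the Apex1 libraries (26.4% and 23.6%). Between Neil1 and Neil2 mESCs no difference was called in the 10 genes (0 calls and 0 genes at an unadjusted p below 0.05 by edgeR, 0 calls by DESeq2).

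Within each mutant genotype, fewer of the genes were raised by retinoic acid than the 8 raised in control clones. In Neil1 mutants 1 of the 10 genes was raised in EBs + RA against EBs and 6 were lowered (27.6% and 21.9% of all genes), in Neil2 mutants 2 were raised and 7 lowered (22.3% and 19.6%), and in the Apex1 mutant 1 was raised and 2 lowered (12.2% and 9.44%). Syt1 was raised in all 3, by 1.20 ± 0.33 in Neil1, 1.61 ± 0.33 in Neil2 and 3.0 ± 0.56 in Apex1 mutants (FDR 0.00428, 3.3e-04 and 7.2e-04), against 3.26 in control. Map2 was the second gene raised in Neil2 mutants (0.60 ± 0.27, FDR 0.0804), a call that was lost without any 1 of the Neil2 clones. Stmn2 and Nefl were lowered in all 3 mutants, Stmn2 by -4.55 ± 0.39, -3.47 ± 0.36 and -2.83 ± 0.61 and Nefl by -2.29 ± 0.29, -2.22 ± 0.29 and -2.71 ± 0.50. Tubb3, raised in control, was lowered in Neil1 (-1.81 ± 0.41, FDR 0.00118) and Neil2 mutants (-1.98 ± 0.42, FDR 7.4e-04).

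The test of the difference between responses called 10 of 10 genes in Neil1 mutants (11.6% of all genes lowered), 9 of 10 in Neil2 mutants (6.96%) and 6 of 10 in the Apex1 mutant (0.871%). All called genes were lower in the mutant and 0 were higher, where 13.4%, 7.05% and 1.62% of all genes were. In Neil2 mutants 7 genes were called without clone #14, the calls of Gap43 (-1.95, FDR 0.11) and Syt1 (-1.46, FDR 0.105) being lost. Gap43 was also not called there without control clone #1 (-1.76, FDR 0.16) or Neil2 clone #11 (-1.98, FDR 0.105), nor Syt1 without control clone #4 (-1.48, FDR 0.126). These comparisons share the EBs and EBs + RA libraries of the control clones. The difference in response also takes in what already differed between mutant and control in EBs. Elavl3 in Neil2 mutants was at -2.75 in EBs + RA and 1.80 in EBs against control, and at -4.55 in response. Gap43 in Neil1 mutants went the other way, at -3.81 in EBs + RA, -1.36 in EBs and -2.45 in response. The response of Elavl4 was lower than in control by -4.54 ± 0.40 (FDR 4.5e-08), -3.97 ± 0.40 (FDR 3.1e-07) and -3.72 ± 0.56 (FDR 0.00123) on the log2 scale in Neil1, Neil2 and Apex1 mutants. For Stmn2 the difference was -2.31 ± 0.48 in Neil1 (FDR 0.00208), -1.24 ± 0.47 in Neil2 (FDR 0.106) and -0.59 ± 0.66 in Apex1 mutants (FDR 0.856). With the clone as a block, since the stages of a clone come from the same cell line, Stmn2 was also called in Neil2 mutants (-1.34, FDR 0.0627) and Tubb3 in the Apex1 mutant (-2.79, FDR 0.0611, against 0.109 without the block). Syt1 (-0.26 ± 0.64) and Gap43 (-0.93 ± 0.80) were not called in the Apex1 mutant.

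**Figure D3:**
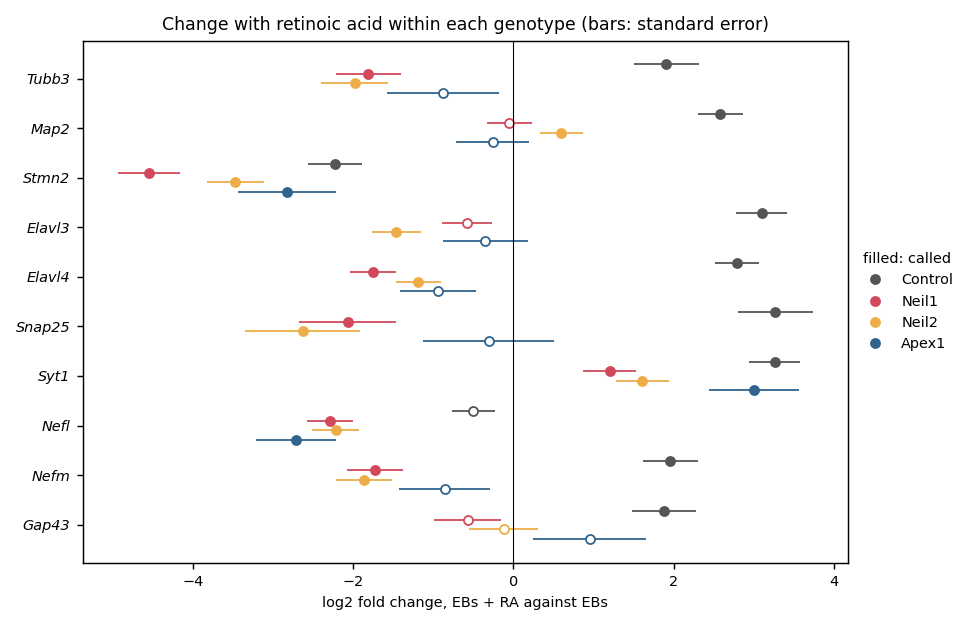
Log2 fold change of EBs + RA against EBs (x axis) for each of the 10 genes (y axis) in each genotype (colour), with bars for the standard error and filled points for called genes. Control points lie above 1.8 for 8 genes, while Neil1- and Neil2-mutant points lie below 0 for all genes but Syt1 and, in Neil2, Map2.

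From mESCs to EBs, Neil1 mutants had 3 of the 10 genes lowered and 1 raised (13.2% and 11.4% of all genes), and Neil2 mutants 4 lowered and 0 raised (12.1% and 13.2%). Stmn2 fell in both, by -2.23 ± 0.34 and -2.51 ± 0.34, as did Gap43 (-1.47 ± 0.41 and -1.79 ± 0.42), which was at -0.24 ± 0.39 in control. Elavl3 fell by -0.96 ± 0.30 and -0.69 ± 0.30. The gene raised in Neil1 mutants was Snap25 (1.64 ± 0.59, FDR 0.044), from 11 to 33 counts over 3 libraries each. In the Apex1 mutant edgeR called 0 of the 10 (5.44% of all genes), with 3 at an unadjusted p below 0.05, and DESeq2 also called 0.

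Genes of the same compartments and markers of other cells were counted from lists. In EBs + RA the shares of all genes against which these counts are to be read were 19.9% lowered and 21.2% raised in Neil1, 16.6% and 18.3% in Neil2, and 2.25% and 4.97% in Apex1 mutants. Of 15 further genes of the neuronal cytoskeleton 11 were lowered and 2 raised in Neil1, 10 lowered and 3 raised in Neil2, and 8 lowered and 0 raised in Apex1 mutants. Dcx, a microtubule-binding protein of migrating neurons, was at 28.7 ± 4.05 CPM in control, 0.372 ± 0.178 in Neil1 and 0.717 ± 0.494 in Neil2 clones (log2 fold changes -6.21 ± 0.34, FDR 5.5e-05, and -5.32 ± 0.44, FDR 3.1e-04), and Tagln3 was at -4.79 ± 0.43 and -4.17 ± 0.41. The heavy neurofilament chain gene Nefh was opposite to Nefl and Nefm, raised by 1.15 ± 0.29 (FDR 0.0167) and 1.10 ± 0.26 (FDR 0.0133), from 3.76 ± 0.685 CPM in control to 8.33 ± 2.32 and 7.97 ± 1.98 CPM. The tubulin gene Tubb2a was raised too (0.81 ± 0.16 and 0.94 ± 0.18).

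Among 10 other neuronal RNA-binding and splicing genes, 8 were lowered and 1 raised in each Neil mutant (19.9% and 21.2% of all genes in Neil1, 16.6% and 18.3% in Neil2), and 5 lowered and 0 raised in Apex1 mutants (2.25% and 4.97%). Celf3 (-5.62 ± 0.46 in Neil1, -5.75 ± 0.40 in Neil2) and the neuronal splicing factor Srrm4 (-3.00 ± 0.31 and -3.18 ± 0.32) were lowered, as was Rbfox2 by a smaller value (-0.61 ± 0.12 and -0.54 ± 0.10), and Celf5 was raised (1.06 ± 0.19 and 0.83 ± 0.17). Of the synaptic vesicle and release list, 7 of 15 tested genes were lowered and 1 raised in either Neil mutant, and 4 of 16 lowered and 0 raised in the Apex1 mutant. Cplx2, a complexin of vesicle fusion, was lowered by -3.25 ± 0.35 in Neil1 and -2.19 ± 0.43 in Neil2 mutants and was already lowered in their EBs (-2.36 ± 0.26 and -1.86 ± 0.24), as Gap43 was. Snap91 was raised in Neil1 mutants (1.51 ± 0.33) and was at 0.73 ± 0.38 (FDR 0.175) in Neil2.

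Upstream of the 10 genes in neuron formation, 13 of 14 tested proneural and early neuronal factors were lowered in each Neil mutant, and 11 of 15 in the Apex1 mutant, with 0 raised, where 19.9%, 16.6% and 2.25% of all genes were lowered. The basic helix-loop-helix factor Neurog1 went from 14.6 ± 5.8 CPM in control EBs + RA to 0.061 ± 0.0606 in Neil1 and 0.0869 ± 0.0968 in Neil2 clones, and Nhlh2 from 31.7 ± 10.3 to 0.183 ± 0.0897 and 0.258 ± 0.139 CPM. Of 9 neural progenitor markers 9, 7 and 6 were lowered in Neil1, Neil2 and Apex1 mutants and 0 raised. Pax6 was at -4.30 ± 0.43, -3.85 ± 0.38 and -3.47 ± 0.59. Their summed level was 734 to 1324 CPM in control, 118 to 173 in Neil1, 177 to 220 in Neil2 and 442 to 463 in Apex1 libraries. Among 8 genes of the REST repressor complex, which holds neuronal genes silent in other cells, 4, 2 and 0 were lowered and 0 raised. With 16.6% and 2.25% of all genes lowered in Neil2 and Apex1 mutants, the counts of 2 and 0 are near the background. Rest itself was at 0.06 ± 0.13, 0.04 ± 0.13 and 0.38 ± 0.20 (FDR 0.74, 0.851 and 0.332), and the corepressor gene Rcor2 was lowered by -1.80 ± 0.15 and -1.20 ± 0.14 in the Neil mutants.

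Of 8 pluripotency markers 7, 8 and 6 were raised and 0 lowered in Neil1, Neil2 and Apex1 EBs + RA, where 21.2%, 18.3% and 4.97% of all genes were raised, and their summed level was 466 to 934, 530 to 1714 and 1607 to 2192 CPM against 169 to 260 in control. Of 8 endoderm markers 5 were raised in Neil1 mutants (summed level 663 to 1414 against 185 to 630 CPM), and 0 in the others. Mesoderm and muscle markers had 3 raised and 1 lowered of 5 tested in Neil1, 4 and 1 of 6 in Neil2, and 2 and 1 of 7 in Apex1 mutants, at no more than 35.7 CPM in sum. Glial markers had 2 raised and 3 lowered of 5 tested in either Neil mutant and 1 and 1 of 7 in Apex1, neural crest and Schwann markers 1 and 4 of 7, 2 and 3 of 7, and 1 and 2 of 8, and neuroendocrine markers 0 raised with 3 of 6, 4 of 7 and 2 of 8 lowered. With so few genes tested, several of these counts, such as 1 of 7 raised in Neil1 and 2 of 7 in Neil2 mutants for the crest list, are near the shares of all genes. The summed glial level was 33 to 35.8 CPM in Neil1, 35 to 38.3 in Neil2 and 63 to 65 in Apex1 libraries, against 105 to 122 in control. Of this sum, Slc1a3 was 93 ± 9.84 CPM in control, 3.34 ± 1.53 in Neil1 and 6.57 ± 4.47 in Neil2 clones. Every matched marker of these lists had counts in each group of EBs + RA. The part of the change in other cell types in the levels of the neuronal genes was not tested.

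**Figure D4:**
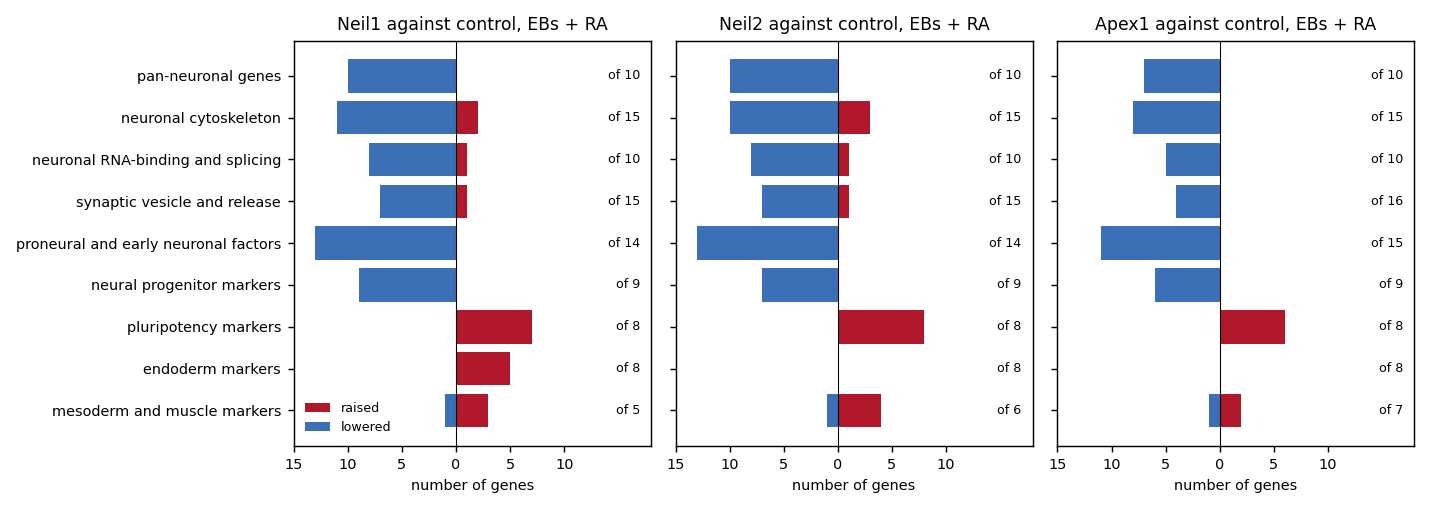
Number of genes of 9 lists (y axis) that were raised (right of 0) or lowered (left of 0) in EBs + RA against control, with 1 panel per mutant the number of genes on the x axis and the number tested at the right. The bars of the neuronal lists point mainly to the left, with 13 proneural factors lowered in either Neil mutant, and those of the pluripotency markers to the right.

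Across the 30 libraries with Apex1 duplicates summed, the genes most like the average of the set, by Pearson correlation of log2 CPM among 14189 genes ranked, were Rfx4 (r = 0.97), Ptprk (0.92), Tagln3 (0.92), Sept3 (0.90) and Gpr98 (0.90). The libraries share clones and controls, so these values are a description. Within the set Elavl4 followed the average of the other 9 genes most closely (r = 0.94 over the 30 libraries) and Syt1 least (0.04). Over the 10 EBs + RA libraries alone, the same correlations ran from 0.77 for Stmn2 to 0.98 for Elavl4. The lowest correlation between any 2 members over all stages was that of Syt1 with Stmn2 (-0.71), Stmn2 being highest in mESCs and Syt1 in control EBs + RA.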

How the data were processed

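RNA-seq libraries were made by the authors with the TruSeq RNA v2 kit, which does not mark strand. Per the submitters' notes and the methods, reads were aligned with TopHat 2.0.9 and Bowtie2 2.1.0 to NCBIM37 (mm9). The deposited files hold raw counts per Ensembl gene, made by the authors with HTSeq 0.5.4. The strand setting of the counting is not given in the sources used here. Reads outside any gene (5.861 to 8.847%), ambiguous reads (1.894 to 2.879%) and reads aligned to several places (11.443 to 19.852%) stood in rows that name no gene and were left out.

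Counts were tested with edgeR 4.0.16 (R 4.3.3): TMM factors, filterByExpr, the robust quasi-likelihood test and Benjamini-Hochberg adjustment over all genes tested. Neil1 and Neil2 mutants were each fitted with control, 3 libraries against 3 per stage. Comparisons with Apex1, whose duplicates were summed, and of the mutants with each other used 1 fit per stage. Stage and retinoic acid comparisons used 1 fit of 30 libraries in 12 groups. Standard errors of the log2 fold change were derived from the test, as its absolute value divided by the square root of the F statistic. They therefore restate the test and are no separate estimate. The clones of a genotype are separate clones of 1 cell line. The same clone gave a library at each stage, and deviations of a clone at 2 stages correlated by -0.41 to 0.44 (27 pairs). Their mean was 0.117, with 15 pairs above 0.1, against -0.054 and 8 of 54 pairs for other clones of the genotype. The 27 pairs join all stages, and EBs with EBs + RA of a clone, which share 1 culture, were not taken alone. A clone block was therefore tried for comparisons across stages, while the reported values come from the fit without it unless stated. Alternatives were DESeq2 1.42.0, RLE size factors, no count filter, an FDR limit of 0.05, autosomal genes only, all genotypes in 1 fit, the Apex1 duplicates as 2 libraries, replicate blocks and leaving out each clone. With 3 libraries against 3, an exact two-sided permutation test of 1 gene cannot go below 0.1, so none was used. The scripts were tested on simulated data.

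The 10 genes were taken by name, but the set and the lists were chosen with earlier results of these data known. Named list genes were the 2 of each list with the most negative and the 2 with the most positive log2 fold change in Neil1-mutant EBs + RA among those called, and Rest. 1 gene that this rule names is not reported here. Sox1 was not matched in the progenitor list. Promoter sequences come from RefSeq tables of GRCm38.p6, not the build of the counts.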

Additional observations from a re-analysis of the deposited data

Results flagged for a closer look

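The response of the neuronal genes to retinoic acid, EBs + RA against EBs, differed between mutant and control clones by the test of that difference itself (edgeR's quasi-likelihood test, Benjamini-Hochberg adjusted) in 25 of 30 comparisons of a gene with a mutant. All 25 were lower in the mutant, and all share the control libraries, so the comparisons are not independent of each other. Of all genes, 11.6% were lowered by this test in Neil1, 6.96% in Neil2 and 0.871% in Apex1 mutants. The shares raised were 13.4%, 7.05% and 1.62%. Each difference in response also takes in what already differed between mutant and control in EBs. In Neil1 mutants the log2 difference was -3.72 for Tubb3, -2.63 for Map2, -2.31 for Stmn2, -1.80 for Nefl and -3.69 for Nefm among the cytoskeletal genes. It was -3.68 for Elavl3, -4.54 for Elavl4, -5.35 for Snap25, -2.06 for Syt1 and -2.45 for Gap43. In Neil2 mutants the cytoskeletal genes were at -3.89 for Tubb3, -1.99 for Map2, -1.72 for Nefl and -3.82 for Nefm. Elavl3 was at -4.55 there, Elavl4 at -3.97, Snap25 at -5.90, Syt1 at -1.65 and Gap43 at -2.0, the Syt1 and Gap43 calls being lost in 2 and 3 of 6 fits that left out a clone. In the Apex1 mutant, which is 1 clone, Map2 was at -2.84, Nefl at -2.21, Nefm at -2.82, Elavl3 at -3.45, Elavl4 at -3.72 and Snap25 at -3.59.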

How the results depend on the processing

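Of 1244 alternative values for single genes, 1178 kept their direction and their side of the limit, 44 were no longer called, 19 became called and 3 changed sign. The 3 were values that were not called: with 1 clone left out, Snap25 from mESCs to EBs in control ranged from -0.19 (without clone #7) to 1.19, against 0.44 with all clones, and the retinoic acid response in Neil1 mutants from -0.28 to 0.17 for Map2 and from -1.02 to 0.12 for Gap43, both highest without Neil1 clone #11. With retinoic acid, 10 genes stayed lowered in Neil1 mutants and 9 to 10 in Neil2 mutants whichever clone was left out. In mESCs 0 genes were called in Neil1 or Neil2 mutants at an FDR below 0.05, 0 in Neil1 mutants with a replicate block by number, and 2 in Neil2 mutants by DESeq2. With the Apex1 duplicates as 2 libraries, Apex1 against control gave 6 calls in mESCs and 3 in EBs, Apex1 against the Neil mutants 6 in mESCs, 3 in EBs and 3 in EBs + RA, and the Apex1 stage comparisons 4 (EBs against mESCs) and 5 (EBs + RA against EBs). DESeq2 gave 3 calls for Apex1 against control in mESCs, and 1 in EBs and 3 in EBs + RA against the Neil mutants, which had 1 call in mESCs at an FDR below 0.05. From mESCs to EBs, Neil2 mutants had 2 calls at an FDR below 0.05 and 2 without the count filter. Leaving out 1 clone at a time gave 0 to 4 calls for Neil1 and 0 to 2 for Neil2 mESCs, 0 to 3, 0 to 1 and 3 to 8 for Apex1 against control in mESCs, EBs and EBs + RA, 1 to 3, 0 to 3 and 0 to 1 for Apex1 against the Neil mutants, 2 to 3 and 2 to 4 from mESCs to EBs in Neil1 and Neil2 mutants, and 7 to 9 and 3 to 7 for the Neil2 and Apex1 difference in response. The cause was not tested. The Stmn2 difference in response of Neil2 mutants, not called in the reported fit, was called by DESeq2 (-1.27) and with RLE size factors (-1.27). Mutant and control clones of a stage with the same replicate number correlated by -0.37 to 0.45 (18 pairs, mean -0.003). Those with other numbers had a mean of 0.003 (36 pairs), and the same clone at 2 stages had 0.117. By these means the number showed no pairing, though the ranges alone could not tell. The block by number ended 1 call, that of Nefm in Neil1 mESCs (1.93, FDR 0.202). The clone block changed only the calls of Stmn2 in Neil2 and Tubb3 in Apex1 mutants given in the report. Depth limits Snap25 and Syt1 most, Snap25 having 4 to 35 counts over a group outside control EBs + RA.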
